A study of Drosophila melanogaster with 3 samples.

Results

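Binding of Collier (Col) was mapped by ChIP-seq in whole Drosophila embryos at stages 13 to 14, and the deposited list of Col summits was searched for 3 genes that restrain or tune signalling pathways: warts (wts, CG12072), G protein-coupled receptor kinase 2 (Gprk2, CG17998) and raw (CG12437). All summits whose label was exactly one of these names were taken, which gave 4 of the 559 summits in the list: 1 labelled wts, 2 labelled Gprk2 and 1 labelled raw. The Col-IP was 1 library, for which 3 monoclonal antibodies against Col were combined, and the mock-IP was 1 library made with an antibody against the HA tag. Each library pooled the DNA of a pair of IPs, so no spread between replicates could be measured and no comparison below is a test between groups. All embryos carried a lacZ reporter driven by a modified col enhancer, and Col was released from the antibodies by competition with recombinant Col protein. A library of input DNA is also listed and was not used here. Embryos were processed whole, so strong binding in few cells and weak binding in many cells cannot be told apart.

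Col is the only Drosophila member of the COE transcription factors, the family of vertebrate EBF, which bind DNA as dimers through a palindromic motif. In the embryo it acts in head patterning, in the identity of dorso-lateral muscles and of specific neurons, and in the lymph gland. Wts is the LATS-family kinase at the end of the Hippo kinase cascade: it phosphorylates the co-activator Yorkie, keeps it out of the nucleus and thereby limits tissue growth. Gprk2 phosphorylates the tail of Smoothened, the membrane protein that passes on the Hedgehog signal, and is needed for a full Hedgehog response. Raw antagonises Jun kinase (JNK) signalling in the embryonic epidermis, where it restricts the pathway during dorsal closure.

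The Col sites listed at the summits come first. For each summit the study's motif search (MEME, in 200 bp around the summit) listed at most a single site of 15 bases. They are printed 5′ to 3′ as listed, with coordinates on dm3. The list gives no strand. Capitals mark the bases that match CCCNNGGG, the core of the motif, at its fixed place from position 5 to position 12 of the site. The site beside raw is followed by that of CG12438, the gene label of the summit next to it.
wts, chr3R:26629019-26629033: aaatCCCaaGGGaat
Gprk2 stronger summit, chr3R:27276113-27276127: tatgCCCaaGGGaat
Gprk2 weaker summit, chr3R:27233304-27233318: tcttCCCttGGcagg
raw, chr2L:8746113-8746127: atttCCCcaGaGggc
CG12438, chr2L:8746874-8746888: aatcCCCctGtGtgc

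The wts site and the site at the stronger Gprk2 summit held all 6 core bases, while the sites at the weaker Gprk2 summit and at raw held 5. Over all 542 listed sites, 231 held all 6 (42.6%), so 2 of 4 was close to the share in the whole list. The consensus CCCNNGGGA, read on either strand, was likewise present at wts and at the stronger Gprk2 summit and in 37.5% of all sites. The wts site and the stronger Gprk2 site shared a run of 11 bases, cccaagggaat.

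The sequence that vertebrate EBF selects in vitro is the core CCCNNGGG with ATT before it and AAT after it. Compared with it, the wts site and the stronger Gprk2 site each matched 11 of the 12 specified bases. This was near the top of the list, in which 13 sites matched 11 or more and the median site matched 8. Counting positions from 1 at the 5′ end of the in vitro sequence, and giving its base first, the wts site differed by T2A and the stronger Gprk2 site by T3G. Among the 13 summits with such sites, fold enrichment ran from 2.55 to 10.58 with a median of 3.86. The wts summit, at 4.14, lay just above that median and the stronger Gprk2 summit, at 2.62, was the next to lowest of the set.

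The other sites departed further from the in vitro sequence. The weaker Gprk2 site matched 8 of the 12 bases and carried G11C inside the core. G stood at this position in 510 of the 542 sites (94.1%, 95% Wilson interval 91.8 to 95.8%), and C in 23 (4.24%, interval 2.84 to 6.29%). The raw site matched 7 of 12 and carried G10A in the core. That position was looser, with A in 131 sites (24.2%, interval 20.8 to 27.9%) and G in 363 (67.0%, interval 62.9 to 70.8%). The core base that differed was therefore a rare substitution at Gprk2 and a common one at raw. These intervals cover counting error over listed sites only.

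A score was used to weigh every position together. For each of the 15 positions, the share of the site's own base among all other listed sites was divided by 0.25, and the log2 values were summed. The median site scored 11.6, with quartiles of 9.64 and 13.3. The wts site scored 15.3 (rank 37 of 542), the raw site 14.5 (rank 71) and the stronger Gprk2 site 14.2 (rank 87). These 3 lay above the upper quartile, and the weaker Gprk2 site, at 6.33 (rank 502), lay below the lower quartile. By this score the raw site stood beside the best matching sites although it matched the in vitro sequence at 7 bases only, as its departures fell at positions where the listed sites vary: the bases it held there were found in 17.2% to 34.1% of them. The study's search chose and oriented the sites by the motif, so the scores describe the listed sites and give no independent evidence of binding.

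**Figure D1:**
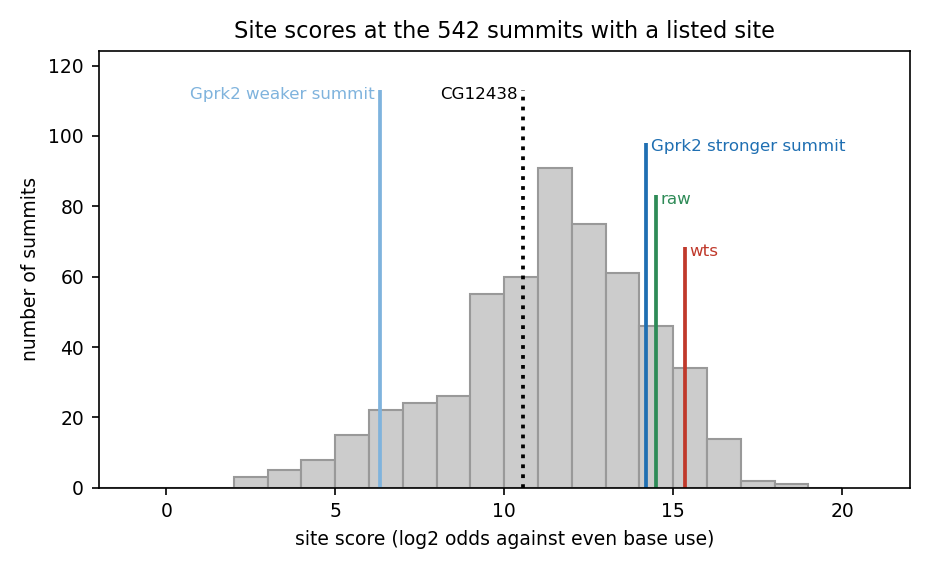
Distribution of site scores (log2 odds against even base use, horizontal axis) over the 542 summits with a listed site (grey bars, number of summits), with vertical lines at the sites of wts, Gprk2, raw and CG12438. The lines of wts (15.3), raw (14.5) and the stronger Gprk2 summit (14.2) stand to the right of the bulk, and that of the weaker Gprk2 summit (6.33) to the left; the height of a line has no meaning.

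The fold enrichment is the linear ratio that the peak caller SISSRs gave each summit; no read counts accompany it, so the depth behind it and its error are unknown. In the whole list it ran from 1.94 to 16.17, with a median of 2.85 and quartiles of 2.38 and 3.74. The highest of the 4 summits was that of raw, at 6.09 (rank 30 of 559), followed by wts at 4.14 (rank 112) and Gprk2 at 2.62 (rank 340) and 1.95 (rank 557). By rank the 4 summits thus ran from 30 to 557, with raw and wts above the upper quartile of the list and both Gprk2 summits below its median. At a fold enrichment of at least 3, which 44.9% of all summits reached, 2 of the 4 remained, those of raw and wts.

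**Figure D2:**
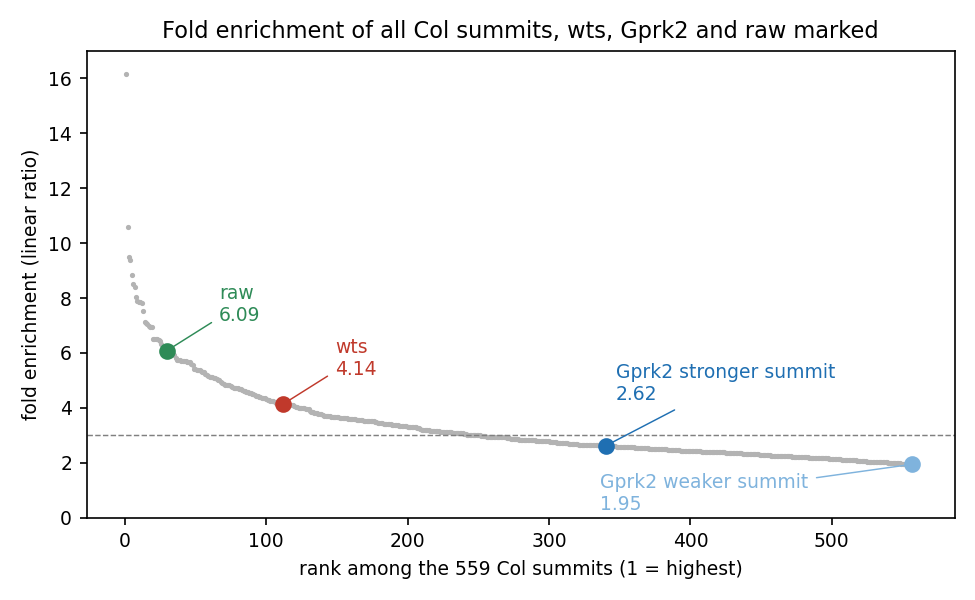
Fold enrichment (linear ratio, vertical axis) of the 559 Col summits against their rank (horizontal axis, highest first), one grey point per summit, with raw, wts and the Gprk2 summits in colour and a dashed line at 3. The summits of raw (6.09) and wts (4.14) lie above the line, and both Gprk2 summits (2.62 and 1.95) below it, the weaker at the very end of the list.

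The wts summit lay at position 26629032 of chromosome arm 3R (dm3), and the authors' annotation places it inside the gene. Its fold enrichment of 4.14 was the same as that of a summit at ssp3, and the next values were 4.15 at CecC, which encodes the antimicrobial peptide cecropin C, and 4.13 at CaBP1 and at mbl, the muscleblind splicing factor gene. On its own arm it ranked 26 of 131. The site centre lay 6 bp from the summit, closer than the median of 18 bp, and 113 of the 542 joined sites lay closer still. Of the 4 summits this was the only one whose site was closer than that median.

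Col summits lay on both sides of wts. The nearest, 14000 bp away towards higher coordinates, was labelled cindr, the gene of a CD2AP/CIN85-type adaptor protein, and had a fold enrichment of 2.67. On the other side, at 25040 bp, was a summit labelled zfh1, which encodes a zinc finger homeodomain factor of mesoderm and neurons, with 4.02. A further summit, at CG1340, a gene named after its values were seen, lay 84880 bp away and had 3.15. The wts summit was the highest of these 4, though it exceeded that of zfh1 by little and the error of neither value is known. In the order of protein-coding genes in RefSeq (Release 6, used for names and order alone), zfh1 was the immediate neighbour of wts and cindr came after dj-1beta on the other side. No summit was labelled dj-1beta. Each of wts, zfh1 and cindr had a single summit.

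The raw summit lay at position 8746202 of chromosome arm 2L, on the 5′ side of the gene in the authors' annotation. With 6.09 it ranked 6 of 131 on its arm and 28 among the highest summits of the 409 labels. The next value above it was 6.15 at CG43335, and the next below was 6.06 at jing, a zinc finger gene. Its site was farther from the summit than most joined sites. The site centre lay 82 bp from the summit, near the edge of the window searched, and 521 of the 542 joined sites lay closer. All 30 summits at or above the value of raw had a listed site. In 2 of them the site was at least as far away, raw itself and a summit at Oaz, with 89 bp. A summit at ci, with a fold enrichment of 6.33, had its site nearly as far, at 80 bp. That site also lay 10 bp from a second ci summit, 70 bp from the first, so the case is unlike raw. Oaz, a zinc finger gene, was named after its values were seen.

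Towards higher coordinates the raw summit had a neighbour at 610 bp, labelled CG12438, with a fold enrichment of 3.17. Another summit within 1000 bp was found for 46 of the 559 summits (8.23%), and of the 4 summits described here for that of raw only. The list held 24 neighbouring pairs that close, 23 of which had the same label on both summits. The pair of raw and CG12438 was the only such pair with different labels, so these adjacent summits were assigned to different genes; the count of pairs by label was made after the distance was seen. In the RefSeq order CG45307 stands between both genes. The listed sites lay on the outer sides of the pair, at 82 bp from the raw summit towards lower coordinates and at 69 bp from the CG12438 summit towards higher ones, so that the site centres were 761 bp apart. The CG12438 site held 5 of the 6 core bases and scored 10.5, rank 349 of 542, below the raw site. In the other direction the nearest summit was 167630 bp from raw, at Sema-1a, which encodes a transmembrane semaphorin of axon guidance, with 2.37.

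Gprk2 was the only one of the 3 genes with several summits, which 95 of the 409 labels had (23.2%). Both lie on arm 3R and inside the gene in the authors' annotation, at 27276152 (fold enrichment 2.62) and 27233352 (1.95). The stronger equalled a summit at sli, the gene of the midline repellent Slit, and stood between 2.63 at Mip, which encodes a myoinhibitory peptide precursor, and 2.61 at CG1791, Nrt, gukh and mbl. The weaker equalled a summit at CG34380 and was the last of 131 on its arm. Summits at CG42389, CG4393, simj and toc had 1.96, and a single summit of the list, at crp, was lower, with 1.94.

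The Gprk2 summits were 42800 bp apart. Among the 66 labels with 2 summits this was the spacing of rank 5 from the longest, with a median of 4850 bp over these labels. In fold enrichment the stronger summit was 1.34 times the weaker, close to the median ratio of 1.35 over the 66 labels. The values themselves were low: in 10 of the 66 labels the stronger summit was lower than 2.62, and in none was the weaker summit lower than 1.95. The stronger summit also had the better site and the closer one, at 32 bp against 41 bp for the weaker, but this is a single pair. Both sites lay farther from the summit than the median site.

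The next summits of other genes were far from Gprk2. Towards lower coordinates a summit labelled CG34347, with a fold enrichment of 2.64, lay 56900 bp from the weaker Gprk2 summit and 99700 bp from the stronger. In the other direction no summit was listed for 590050 bp, up to CG2053 with 2.25. In the RefSeq order 48 protein-coding genes lie between Gprk2 and CG2053 and 6 between Gprk2 and CG34347. Over the whole list the median distance to the nearest summit was 28800 bp. It was 14000 bp at wts, 42800 bp at both Gprk2 summits and 610 bp at raw.

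**Figure D3:**
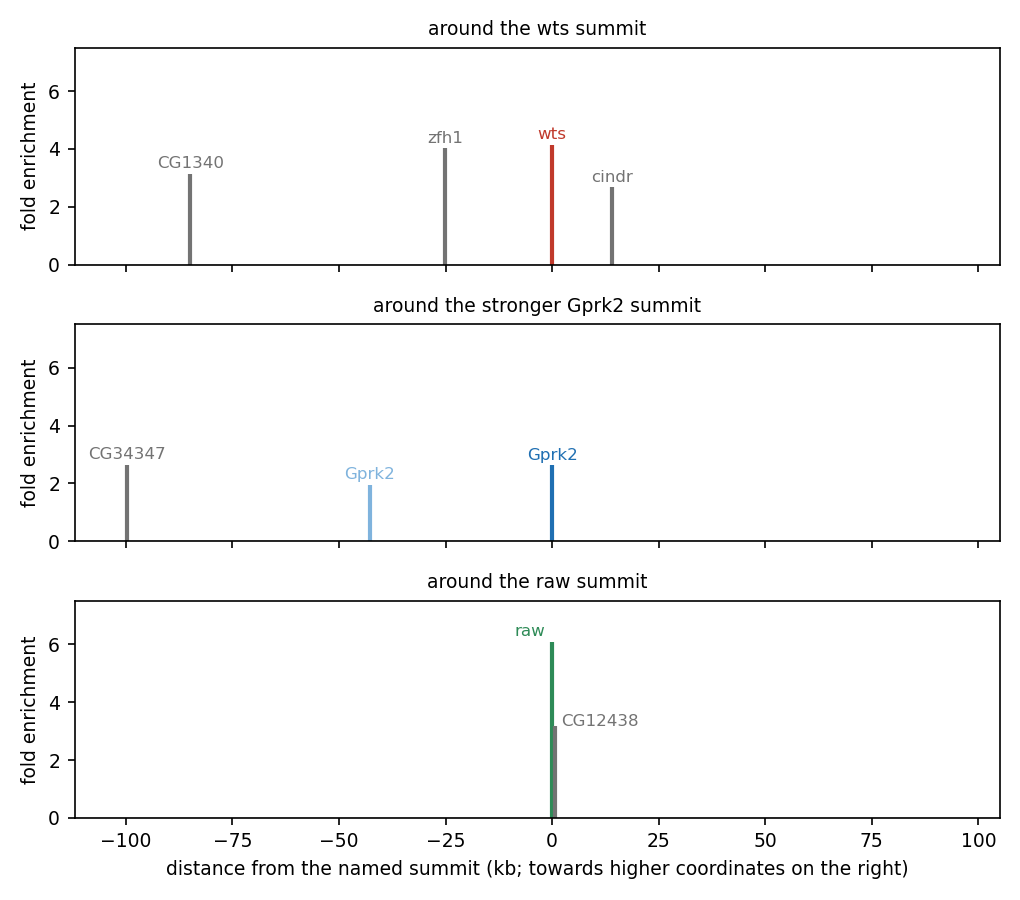
Col summits within 100 kb of the summit of wts, the stronger summit of Gprk2 and the summit of raw, with the distance from that summit in kb (horizontal axis) and the fold enrichment (linear ratio, vertical axis); each bar is a summit with its gene label. Around wts stand zfh1 (4.02), cindr (2.67) and CG1340 (3.15), around Gprk2 its own weaker summit (1.95) and CG34347 (2.64), and at raw only CG12438 (3.17), 610 bp away.

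All 4 sites lay on the side of lower coordinates, at 6, 32, 41 and 82 bp from the summits of wts, Gprk2 (stronger, then weaker) and raw, and 49.6% of all joined sites lay on that side of their summit. Within 50 bp of the summit lay 3 of the 4 sites, as did 83.2% of all joined sites. The order by distance was not the order by fold enrichment, since the highest summit, raw, had the farthest site. Nor did the number of core bases order them: raw, with 5, stood above wts, with 6. Over the whole list, summits whose site held 6 core bases had a median fold enrichment of 3.07 and those with 5 a median of 2.79, with ranges of 1.95 to 16.17 and 1.94 to 9.38.

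**Figure D4:**
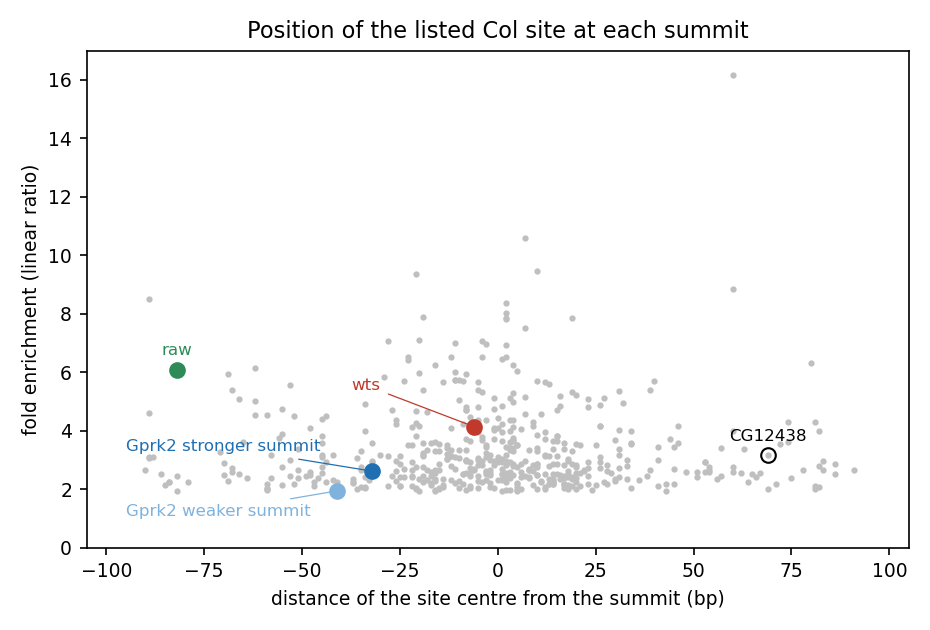
Fold enrichment (linear ratio, vertical axis) against the signed distance in bp from the summit to the centre of its listed site (horizontal axis), one grey point for each of the 542 summits with a site, with wts, Gprk2 and raw in colour and CG12438 as an open circle. Sites crowd around 0, where that of wts lies (6 bp), while raw (82 bp, 6.09) stands at the left edge above most points.

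The other genes of the same pathways were looked up in 4 lists of 104 genes in all, 103 of which were found in the RefSeq gene table. At least 1 summit was found for 14 of them, or 11 of 101 without wts, Gprk2 and raw. Among all genes of that source, 407 of 13962 protein-coding genes (2.92%) labelled a summit. The lists were drawn up with the labels of the study known and hold many developmental genes, so this difference was not tested and says nothing particular about signalling.

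In the Hippo list 3 of 29 genes had a summit. Besides wts (4.14) these were hth, a homeodomain gene with 5 summits from 2.42 to 3.57, and tsh, a zinc finger gene, with 2.78. Both encode partners of Yorkie on DNA in eye progenitors. Of the genes in this list that label a summit, wts alone encodes a component of the kinase cascade, and its summit was the highest of the list. No summit was labelled hpo, sav or mats, the other core cascade genes, nor yki.

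In the Hedgehog list 4 of 31 genes had a summit. The summits at ci, the gene of the transcription factor that carries out the Hedgehog response, were the highest, with 6.33 and 5.7. These ci summits lay only 70 bp apart and were joined to the same site, so they may not be separate places of binding. A summit at inv, the engrailed paralogue, had 5.67 and that at dally, the gene of a heparan sulphate proteoglycan, had 2.77. The stronger Gprk2 summit, at 2.62, was below all of these. Neither ptc nor smo, the genes of the Hedgehog receptor and of the protein that Gprk2 phosphorylates, labelled a summit. Nor did hh, which the paper names as a direct Col target known from earlier work. The paper proposes that hh is perhaps regulated at earlier stages than those used, which was not tested here. A gene without a summit can therefore still be a Col target. The list of G protein signalling genes, 17 in all, gave 2: Gprk2 and Galphao, which encodes a G protein alpha subunit and shares the joint label of its summit (2.83) with Cyp49a1.

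In the JNK list 6 of 30 genes had a summit. That of raw stood well above the others. This rests on the authors' assignment of that summit to raw, and a summit labelled CG12438 lay 610 bp away. The remaining 5 had a summit each, all below the median of the whole list: Src64B, the gene of a Src-family kinase, with 2.44, pnt, an ETS activator gene, with 2.38, bsk, the gene of JNK itself, with 2.18, cno, the gene of a junctional actin linker, with 2.07, and aop, an ETS repressor gene, with 2.01. No summit was labelled hep, Jra, kay or puc, which encode the kinase upstream of JNK, the AP-1 subunits and the phosphatase that damps JNK. A summit carries the label of its assigned gene, so sites assigned to a neighbouring gene are not counted, and the list cannot show weaker binding at genes without a label.

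**Figure D5:**
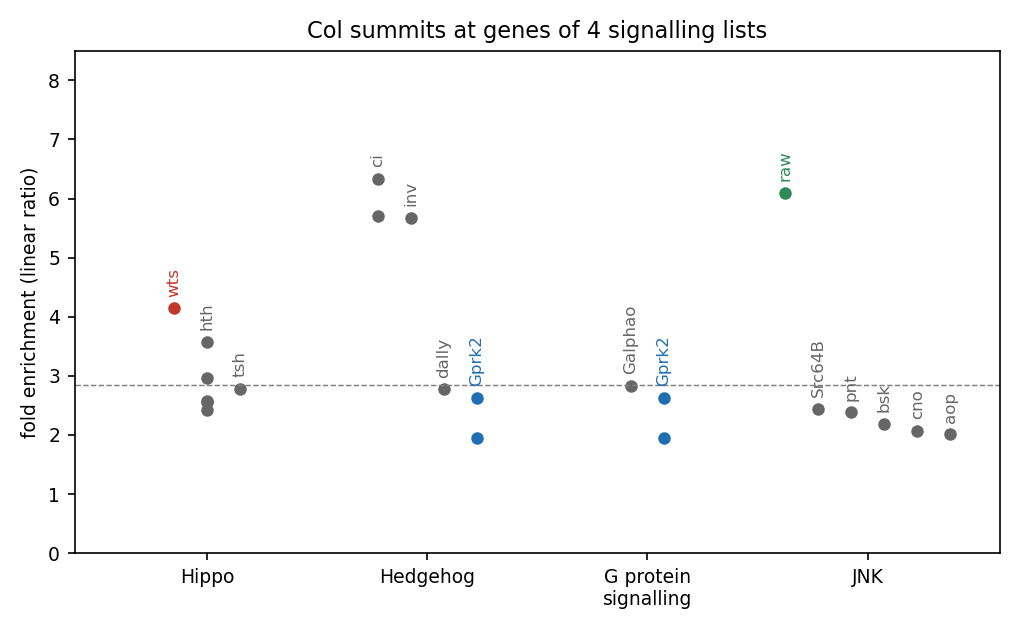
Fold enrichment (linear ratio, vertical axis) of the Col summits at genes of 4 signalling lists (horizontal axis), one point per summit and one column per gene, with wts, Gprk2 and raw in colour and a dashed line at the median of all summits (2.85). In the JNK list only raw (6.09) lies above the line, in the Hippo list wts (4.14) is the highest, and in the Hedgehog list both Gprk2 summits lie below those of ci, inv and dally; Gprk2 appears in 2 lists.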

How the data were processed

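Reads of 1 Col-IP and 1 mock-IP library were aligned by the authors to dm3 (BDGP release 5) with Bowtie 0.12.7, and peaks were called with SISSRs at lenient thresholds, which were not varied here. The deposited list gives for each summit a position, a gene label from PeakAnalyzer or curation, and the caller's fold enrichment (a linear ratio; what it is relative to is not given in the sources used here). All positions end in the same digit, so they follow a 10 bp grid. The list holds no counts, and the depth of each library is unknown from it.

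Positions were taken 1-based. Each summit was joined to the nearest site of the study's list with its centre within 100 bp, from which sequences and coordinates alone were used. Site scores used a pseudocount of 1. Labels were matched to the RefSeq gene table (Release 6) by symbol or unambiguous older name, 409 of 414 names. Python 3.11.15, numpy 2.4.6, scipy 1.17.1 and matplotlib 3.10.9 were used, and the functions were tested on simulated data.

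The 3 genes and the pathway lists were chosen with earlier results of these data known. Other genes named are the nearest summits on each side, the next values above and below, and list genes with a summit, or are said to be named after their values were seen. No test was made, as each antibody has a single library.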

Additional observations from a re-analysis of the deposited data

How the results depend on the processing

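The number of summits at wts and raw was 1 under each alternative, while at a fold enrichment of at least 3 the count at Gprk2 fell to 0, as both its summits lie below that value. Under the same limit the nearest summit was 25040 bp from wts, and 647120 and 604320 bp from the stronger and weaker Gprk2 summits; only neighbours with another label gave 99700 and 56900 bp for Gprk2. Fewer summits must give longer distances. It also left 0 genes in the G protein list, 2 in the Hedgehog list and 1 in the JNK list. Current symbols only, or joint labels kept whole, left 1 gene in the G protein list, since Galphao is found there by an older name in a joint label. The share of summits with a lower fold enrichment was 39.0% for the stronger Gprk2 summit in the whole list and 46.6% on its arm, and for the weaker 0.179% and 0%. With 1 mismatch allowed in CCCNNGGGA, 4 of the 4 sites held it. The share of all listed sites at this setting was not counted, so the 4 cannot be set apart by it. The 231 of 542 sites with all 6 core bases must hold it, and 242 more had 5 core bases. The other alternatives, among them site centres in place of summits and the spacing of the Gprk2 summits, stayed within their intervals or within 1.5 times. No paired analysis was possible because each antibody has a single library. The error of a single fold enrichment is unknown.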
